A study of Drosophila melanogaster with 13 samples.

Results

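Translation initiation factors (eIFs) are the proteins that bring the initiator tRNA, the small ribosomal subunit and the capped mRNA together and then let the large subunit join at the start codon. Their genes were picked by symbol, as rows whose name begins with eIF and a digit in both tables the authors deposited. The symbol rule leaves out eIF4A3, which belongs to the exon junction complex. This gave 35 of 8187 gene rows shared by the tables. They fall into eIF1 (2 rows), eIF2 with its exchange factor eIF2B and eIF2D (9 rows), eIF3 (13 rows), eIF4 (8 rows), eIF5 (2 rows) and eIF6 (1 row). All 35 had a p-value in both tables, and none was left out by a filter applied here.

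The cells were OSC, a wild-type Drosophila melanogaster line of ovarian somatic cells. All 3 groups described here were transfected with small interfering RNA (siRNA) at 0 and 48 h and collected at 96 h, and each had 3 libraries, poly(A)-selected per the labels' protocols. The library names carry the tag RZ, which the labels do not explain. The siRNA was directed against Armitage (siARMI, gene armi), against Yb (siYB, gene fs(1)Yb) or, in the control, was labelled siLUC. Both factors belong to the piRNA pathway, in which small RNAs silence transposons. A further 4 libraries of 4-thiouridine labelling were not analysed here.

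Each deposited table compares a knockdown with the control and lists per row a mean normalised count over all its libraries, a log2 fold change with its error, and a p-value, also adjusted by the Benjamini-Hochberg (BH) method. Judged from the values, the fold changes appear to have been shrunk toward 0, which no header or label states, so sizes may be understated. The libraries are pooled in these values, so levels per library and their spread cannot be shown. Per the authors' deposited tables armi stood at −1.92 ± 0.07 in the siARMI comparison (BH-adjusted p = 3.98e-174) and fs(1)Yb at −2.17 ± 0.51 in the siYB comparison (BH-adjusted p = 6.04e-04). Markers of ovarian somatic cells stood well above germ cell markers per kilobase of transcript. In the siARMI table the 9 measured somatic markers had 171 to 1668 normalised counts per kb, with tj at 1668 and zfh1 at 1217. The 8 measured germ cell markers had 0.837 to 26.2, with vas at 2.78 and bam at 1.18.

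Initiation proceeds by division of labour among these factors. eIF1 and eIF1A hold the small subunit open while it scans. eIF2 carries the initiator tRNA in a form bound to GTP, and eIF2B recharges it with GTP, a step blocked by phosphorylation of the alpha subunit of eIF2 under stress. eIF3 is the large scaffold on the small subunit, the eIF4 group binds and unwinds the capped mRNA, eIF5 and eIF5B trigger GTP hydrolysis and subunit joining, and eIF6 keeps free large subunits apart from small ones.

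The initiation factor transcripts spanned a wide range of levels in these cells. Levels are given as mean normalised count per kilobase of the longest annotated transcript, a scale on which genes of different length can be set side by side within a table. The values ran from 12.4 per kb for eIF4E6 to 7477 per kb for eIF4A in the siARMI table, and from 2.83 to 1876 per kb for the same genes in the siYB table. The scales of both tables differ, so levels are read only within a table, by order or by ratio. Of the 35 factors 21 lay in the top 10% of gene rows by this measure in the siARMI table, and 5 lay below the median gene row. Among those 5, the place of eIF4EHP depends on the length used. It had 80.3 per kb by its longest transcript and 275 by its shortest, a length chosen after seeing the data. The gene rows were not ranked by their shortest transcripts.

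eIF4A, the RNA helicase that unwinds the mRNA leader, stood highest of the 35 in both tables. eIF1 followed at 2092 per kb in the siARMI table and eIF3b at 1962. Most of eIF3 sat in a narrow band, in a grouping made after the levels were seen. Its 9 subunits a, b, c, d1, e, f1, g1, h and i had 1473 to 1962 per kb, a 1.33-fold range, in the siARMI table and 433 to 558 per kb, a 1.29-fold range, in the siYB table. The subunits k, l and m lay lower, at 782 to 905 per kb in the siARMI table and 233 to 256 in the siYB table. eIF3j, a loosely bound subunit, had 351 per kb in the siARMI table.

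The subunits of eIF2 had 805 per kb for alpha, 1218 for beta and 1002 for gamma in the siARMI table. Those of its exchange factor were less alike and lower. eIF2Bdelta had 494 per kb, eIF2Bbeta 329, eIF2Bepsilon 286, eIF2Bgamma 134 and eIF2Balpha 106 in that table, a 4.65-fold range, against 4.52-fold in the siYB table. eIF2D, which can deliver tRNA to the ribosome without GTP, had 89.6 per kb.

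Among the eIF4 genes levels spread most. eIF4E1, the main cap-binding protein, had 915 per kb in the siARMI table, and eIF4H1, a helper of the helicase, had 352. The scaffolds eIF4G1 and eIF4G2 had 258 and 155 per kb. eIF4EHP, a cap-binding protein known as a repressor of translation, had 80.3. eIF4B, another helper of the helicase, had 22.3 per kb, 336 times less than eIF4A in the siARMI table and 320 times less in the siYB table. Of the last factors, eIF6 had 1047 per kb, eIF5B 663 and eIF5 464. Since the tables pool libraries, no spread is known by which neighbours in this order could be told apart.

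**Figure D1:**
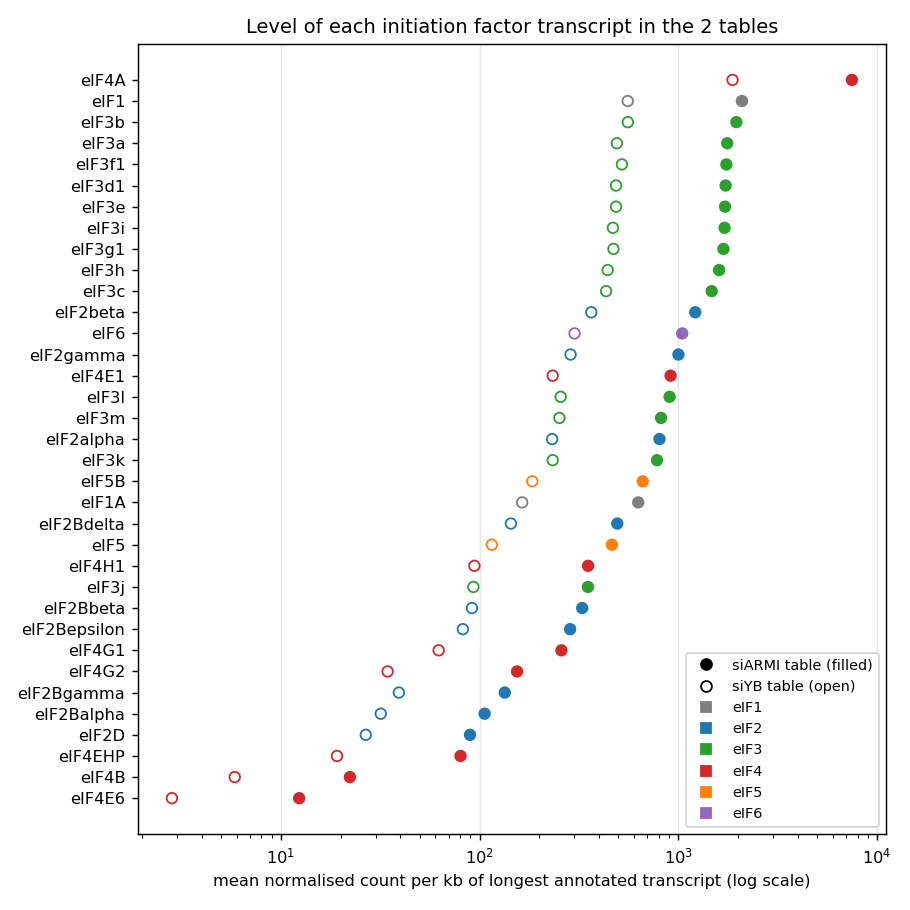
Mean normalised count per kb of the longest annotated transcript (log axis) for each of the 35 factors, ordered by the siARMI table (filled points), with the siYB table as open points and colours for factor numbers. eIF4A is highest at 7477 and 1876, the green eIF3 points bunch between 1473 and 1962 in the siARMI table apart from j, k, l and m, and eIF4E6 is lowest.

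After Armitage knockdown the 3 subunits of eIF2 and part of eIF2B fell, and part of the eIF4 group rose. Of the 35 factors 12 passed the test, 8 lower and 4 higher, and 23 did not, at a BH-adjusted p under 0.05 per the authors' deposited table. As background 28.3% of 8289 gene rows were called, 13.4% lower and 14.9% higher. Of the factors 34.3% were called, 22.9% lower and 11.4% higher. Among gene rows at or above the median count 38.4% were called, 18.7% lower and 19.7% higher. Of the 30 factors there 40.0% were called, 26.7% lower and 13.3% higher. The median count of those gene rows was 641 and that of those factors 1531, so the rows are not matched in abundance. The median log2 fold change over the 35 was −0.05 per the authors' deposited table and that over all gene rows −0.0067. In bulk RNA a lower share of a cell type and less RNA per cell cannot be told apart.

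The listed signs were shared within eIF2 and within eIF4. Some of those rows, among them eIF2Bgamma, eIF4B and eIF4E6, had errors larger than their estimates, so their signs are uncertain. Per the authors' deposited table all 9 eIF2 rows had a negative log2 fold change, with a median of −0.29, 5 of them past the test. All 8 eIF4 rows had a positive log2 fold change there, with a median of 0.12, 3 of them past the test. For comparison, 51.1% of all gene rows were negative. Of eIF3, 11 rows were negative and 2 positive, with 2 past the test. Both eIF1 rows and both eIF5 rows were positive, and eIF6 was negative. With the median of all gene rows subtracted, 1 of the 35 signs changed, that of eIF3g1 at −0.0014.

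**Figure D2:**
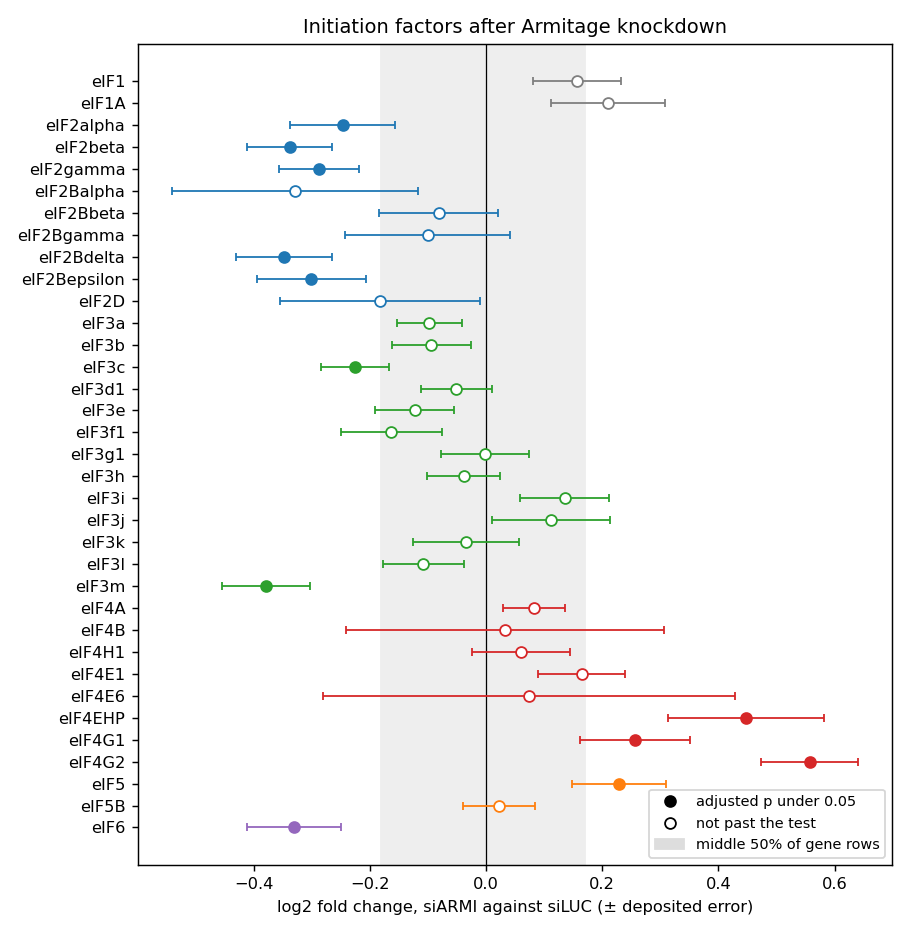
Log2 fold change of each factor in siARMI against siLUC, with bars for the deposited error, filled points for an adjusted p under 0.05 and a grey band for the middle 50% of gene rows (−0.18 to 0.17). The blue eIF2 points all lie left of 0 and the red eIF4 points all lie right of it, with eIF3 mostly left.

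All 3 subunits of eIF2 fell. The beta subunit, eIF2beta (FBgn0004926; chromosome 3L, 12525093 to 12526731, minus strand, BDGP6.54), stood at −0.34 ± 0.07 per the authors' deposited table (BH-adjusted p = 2.21e-05), a level 20.9% lower by that fold. The gamma subunit, eIF2gamma, which binds GTP and the tRNA, stood at −0.29 ± 0.07 per the authors' deposited table (BH-adjusted p = 1.71e-04). It shares 352 of its 2203 exon bases, on the same strand, with Su(var)3-9, a histone methyltransferase gene, at −0.30 ± 0.14 per the authors' deposited table, so reads of the pair may be split uncertainly. The alpha subunit, eIF2alpha, the target of the stress kinases, stood at −0.25 ± 0.09 per the authors' deposited table (BH-adjusted p = 0.0213). Its adjusted p is 0.205 with the Benjamini-Yekutieli method.

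Of the 5 eIF2B subunits 2 fell. eIF2Bdelta, a regulatory subunit, stood at −0.35 ± 0.08 (BH-adjusted p = 1.34e-04) and eIF2Bepsilon, the catalytic subunit, at −0.30 ± 0.09 (BH-adjusted p = 0.00504) per the authors' deposited table. The other subunits did not pass. eIF2Balpha had a similar estimate with a wider error, −0.33 ± 0.21 per the authors' deposited table, at a mean normalised count of 107 against 1036 for eIF2Bdelta. eIF2Bgamma stood at −0.10 ± 0.14 and eIF2Bbeta at −0.08 ± 0.10 per the authors' deposited table. eIF2D, at −0.18 ± 0.17 per the authors' deposited table, did not pass either. The approximate 95% interval (1.96 errors either side of the listed value) was −0.74 to 0.09 for eIF2Balpha and −0.28 to 0.12 for eIF2Bbeta. Since the fold changes appear to have been shrunk, such intervals, here and below, may lie too near 0.

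In eIF3, 2 of 13 subunits fell and 11 did not pass. eIF3m (FBgn0033902; chromosome 2R, 14163066 to 14164825, minus strand, BDGP6.54) had the lowest log2 fold change of the 35, −0.38 ± 0.08 per the authors' deposited table (BH-adjusted p = 3.32e-06), a level 23.1% lower. eIF3c, a core subunit that contacts eIF1 and eIF5, stood at −0.23 ± 0.06 per the authors' deposited table (BH-adjusted p = 7.02e-04). The other core subunits eIF3a and eIF3b stood at −0.10 ± 0.06 and −0.09 ± 0.07 per the authors' deposited table. Of the rest, eIF3f1 was at −0.16 ± 0.09, eIF3e at −0.12 ± 0.07 and eIF3l at −0.11 ± 0.07 per the authors' deposited table, while eIF3d1, eIF3h, eIF3k and eIF3g1 lay between −0.05 and −0.0014. The subunits with a positive sign were eIF3i at 0.14 ± 0.08 and eIF3j at 0.11 ± 0.10 per the authors' deposited table. The mean normalised counts of the 13 rows ran from 479 to 6866 in the siARMI table and their errors from 0.06 to 0.10.

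Both eIF4G scaffolds rose. eIF4G2 (FBgn0260634; chromosome 3R, 23808285 to 23819237, minus strand, BDGP6.54), known in Drosophila for its role in male germ cells, had the highest log2 fold change of the 35, 0.56 ± 0.08 per the authors' deposited table (BH-adjusted p = 1.57e-10), a level 47.1% higher. It shares 779 of 9097 exon bases on the same strand with CG33111, at −0.44 ± 0.17 per the authors' deposited table (BH-adjusted p = 0.0189). eIF4G1, the general scaffold that links the cap-binding protein to the helicase, was higher by 0.26 ± 0.09 per the authors' deposited table (BH-adjusted p = 0.0218). Its adjusted p is 0.210 with the Benjamini-Yekutieli method. The difference between the changes of both scaffolds was not tested.

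Of the 3 cap-binding proteins 1 rose. The repressor eIF4EHP was higher by 0.45 ± 0.13 per the authors' deposited table (BH-adjusted p = 0.00260). It shares 447 of 6418 exon bases on the same strand with Syx1A, a syntaxin gene that was also higher, by 0.70 ± 0.15 per the authors' deposited table (BH-adjusted p = 9.76e-06), and the part of shared reads in the change was not tested. The general cap-binding gene eIF4E1 stood at 0.16 ± 0.07 per the authors' deposited table (BH-adjusted p = 0.0778) and did not pass. eIF4E6, at 0.07 ± 0.35 per the authors' deposited table with a mean normalised count of 8.49, did not pass, and a change of this size was not detectable at that depth.

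The helicase eIF4A and its helpers did not pass. eIF4A stood at 0.08 ± 0.05 per the authors' deposited table, with the smallest error of the 35 and an approximate 95% interval of −0.02 to 0.19. eIF4H1 was at 0.06 ± 0.09 and eIF4B at 0.03 ± 0.27 per the authors' deposited table.

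The factors acting at the start codon and at subunit joining went different ways. eIF5, the activator of GTP hydrolysis on eIF2, was higher by 0.23 ± 0.08 per the authors' deposited table (BH-adjusted p = 0.0176, and 0.170 with Benjamini-Yekutieli). It shares 2588 of its 3203 exon bases with CG46312 on the same strand, a gene not analysed here, so its count may include that gene. eIF6 fell, with −0.33 ± 0.08 per the authors' deposited table (BH-adjusted p = 2.64e-04), a level 20.5% lower. eIF1A at 0.21 ± 0.10 (BH-adjusted p = 0.0811) and eIF1 at 0.16 ± 0.08 (BH-adjusted p = 0.103) had an unadjusted p under 0.05 per the authors' deposited table but did not pass after adjustment.

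eIF5B is the next gene to armi, the gene targeted by the siRNA. It lies on chromosome 3L at 3428658 to 3460977 on the minus strand and armi at 3461317 to 3466314 on the plus strand (BDGP6.54), so that their annotated starts are 340 bases apart and point away from each other. While armi stood at −1.92 ± 0.07, eIF5B stood at 0.02 ± 0.06 per the authors' deposited table (BH-adjusted p = 0.838), with an approximate 95% interval of −0.10 to 0.14.

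**Figure D3:**
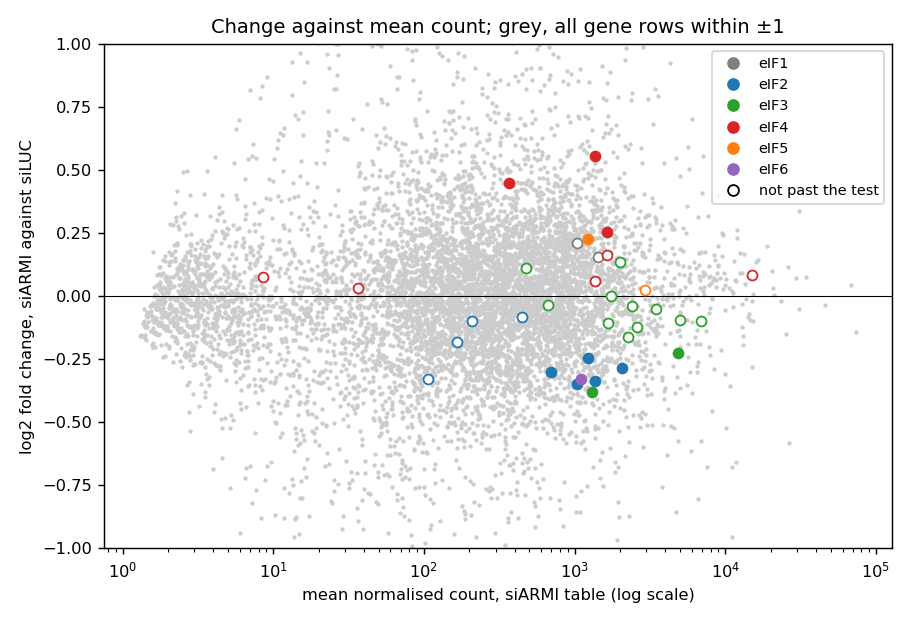
Log2 fold change in siARMI against siLUC plotted on mean normalised count (log axis) for all gene rows within ±1 (grey) and the 35 factors (coloured, filled where past the test). The 12 called factors have mean counts between 364 and 4825, and the uncalled factors run from 8.49 to 15111.

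Besides the 35 members the BDGP6.54 annotation names 9 genes that fit the symbol rule and are not analysed here under those names, among them eIF3d2, eIF3f2, eIF3g2, eIF4H2 and eIF4E3, eIF4E4, eIF4E5 and eIF4E7. Within the eIF4E family eIF4E1 stood 73.9 times above eIF4E6 and 11.4 times above eIF4EHP per kb in the siARMI table, and 82.4 and 12.2 times in the siYB table. With the shortest annotated transcript as the length, a choice made after seeing the data, the ratio of eIF4E1 to eIF4EHP was 5.16 in the siARMI table. eIF4G1 stood 1.67 times above eIF4G2 in the siARMI table and 1.81 times in the siYB table. Reads shared between copies of similar sequence are uncertain, since the counting is not described.

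After Yb knockdown 0 of the 35 factors passed the test per the authors' deposited table, and 0 had an unadjusted p under 0.05. As background 0.0723% of 8295 gene rows were called. The unadjusted p-values of the factors ran from 0.419 for eIF4E6 to 0.999 for eIF3h, with a median of 0.851, per the authors' deposited table. The fold changes of all 35 are listed at about 0 in that deposited table, the largest absolute value being 1.19e-05, so neither their size nor their sign can be read.

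The factors called after Armitage knockdown had p-values within the range of the other factors here. The 8 that fell had an unadjusted p of 0.756 to 0.950 and the 4 that rose 0.667 to 0.952 in the siYB table the authors deposited. Over all gene rows the median p was 0.728 in that table, where chance alone gives values spread evenly from 0 to 1, and the 66 rows of any kind with an unadjusted p under 0.05 compare with 423.9 expected by chance. A missing call in the siYB comparison therefore carries little information, and a difference between the knockdowns was not tested. Both comparisons share the siLUC control by the series design.

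**Figure D4:**
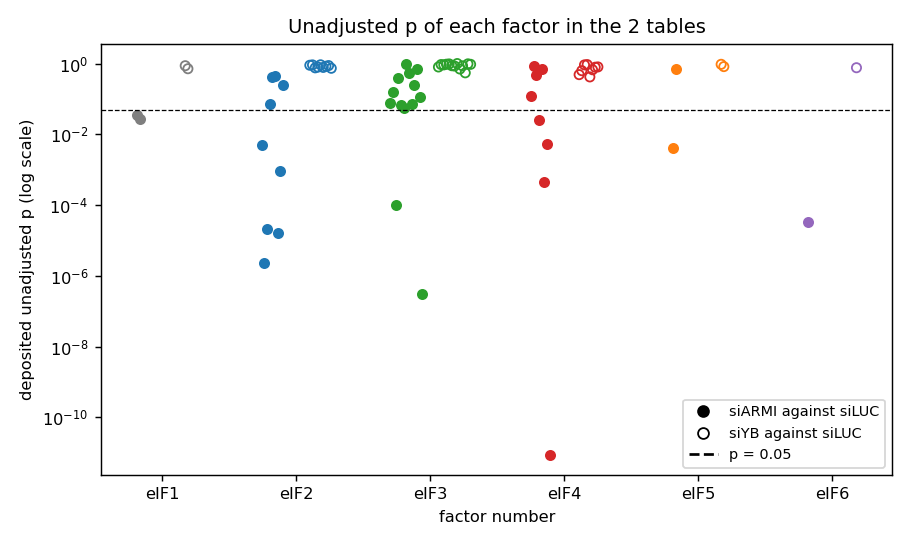
Deposited unadjusted p (log axis) of each factor by factor number, filled for siARMI and open for siYB, with a dashed line at 0.05. The open points all lie between 0.419 and 0.999, while 15 of the 35 filled points lie below the line.

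Of 29 measured genes listed as regulators of initiation 6 rose, 5 fell and 18 did not pass after Armitage knockdown per the authors' deposited table. The share called was 37.9%, with a median log2 fold change of −0.01. The list is broad and also holds RpS6, a ribosomal protein gene, and krimp, a piRNA pathway gene, which did not pass. Of all gene rows 28.3% were called, and 38.4% of those at or above the median count. The smallest p belonged to bru1, an RNA-binding repressor of translation in the ovary, higher by 1.44 ± 0.08 per the authors' deposited table (BH-adjusted p = 2.03e-66). NAT1, a relative of the eIF4G scaffolds, was higher by 0.40 ± 0.06 per the authors' deposited table (BH-adjusted p = 5.87e-10). The transcription factor gene crc, the fly ATF4, stood at −0.36 ± 0.06 (BH-adjusted p = 1.63e-08) and larp, an mRNA-binding partner of the poly(A)-binding protein, at −0.49 ± 0.09 (BH-adjusted p = 1.54e-07) per the authors' deposited table.

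Further genes of that list that act on initiation factors are given here, singled out after their values were seen. Others of that kind did not pass, with BH-adjusted p = 0.0895 for mxt, 0.293 for cup, 0.437 for Gyf, 0.490 for 4E-T and 0.989 for Paip2 per the authors' deposited table. Thor, which encodes the eIF4E-binding inhibitor 4E-BP, stood at −1.36 ± 0.29 per the authors' deposited table at a mean normalised count of 60.7 (BH-adjusted p = 3.04e-06). Lk6, the kinase that phosphorylates eIF4E, stood at −0.38 ± 0.07 per the authors' deposited table (BH-adjusted p = 2.69e-07). Pdcd4, known in mammals as an inhibitor of eIF4A, was higher by 0.32 ± 0.07 (BH-adjusted p = 1.41e-05), and pAbp, the poly(A)-binding protein that contacts eIF4G, by 0.20 ± 0.05 (BH-adjusted p = 7.22e-04) per the authors' deposited table. Of the kinases of eIF2alpha, Gcn2 stood at −0.25 ± 0.10 (BH-adjusted p = 0.0386) and PEK, which did not pass, at 0.10 ± 0.07 per the authors' deposited table. PPP1R15, the phosphatase subunit that reverses that mark, stood at −0.12 ± 0.11 per the authors' deposited table and did not pass. Also past the test were S6k, higher by 0.31 ± 0.10 (BH-adjusted p = 0.00639), and bel, by 0.19 ± 0.07 (BH-adjusted p = 0.0295), per the authors' deposited table.

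Of 16 measured genes in a list made mainly of elongation and termination factors 1 rose, 3 fell and 12 did not pass after Armitage knockdown. The share called was 25.0% per the authors' deposited table, near the 28.3% of all gene rows. The list also holds the mitochondrial initiation factors mIF2 and mIF3, which did not pass, and the enzyme gene Dph5. Its member pix is counted among the regulators of initiation as well. eEF5, the factor once named eIF5A, was higher by 0.30 ± 0.07 (BH-adjusted p = 5.87e-05) per the authors' deposited table. Dph5, an enzyme that modifies eEF2, stood at −0.40 ± 0.13 (BH-adjusted p = 0.00616), HBS1 of ribosome rescue at −0.19 ± 0.07 (BH-adjusted p = 0.0220) and eEF1gamma at −0.16 ± 0.06 (BH-adjusted p = 0.0185) per the authors' deposited table. The abundant eEF1alpha1 and eEF2 stood at 0.04 ± 0.06 and −0.03 ± 0.05 per the authors' deposited table and did not pass. After Yb knockdown 0 genes of either list passed, and 0 had an unadjusted p under 0.05, per the authors' deposited table.

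Cell type markers were counted in the siARMI comparison against the same background, 13.4% of all gene rows lower and 14.9% higher. Of the 9 measured somatic markers 7 fell and 1 rose per the authors' deposited table, and of the 8 germ cell markers 1 fell and 2 rose. Of these 2, AGO3 stood at 1.82 ± 0.25 with a mean normalised count of 78.0 per the authors' deposited table (BH-adjusted p = 2.78e-13). The other, osk, had a mean normalised count of only 5.05, at 1.29 ± 1.43 per the authors' deposited table. The somatic marker that rose was Fas3, at 2.13 ± 0.18 per the authors' deposited table (BH-adjusted p = 7.29e-33). Of 3 hemocyte and fat body markers 1 fell and 2 rose there, and of 4 muscle markers 1 fell and 1 rose. Of 3 neuron and glia markers 0 passed, 1 having an unadjusted p under 0.05. Among these, brp and nSyb had mean normalised counts of only 3.39 and 1.74, where a change is hard to call. The part of the cell type markers in the changes of the initiation factors was not tested.

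**Figure D5:**
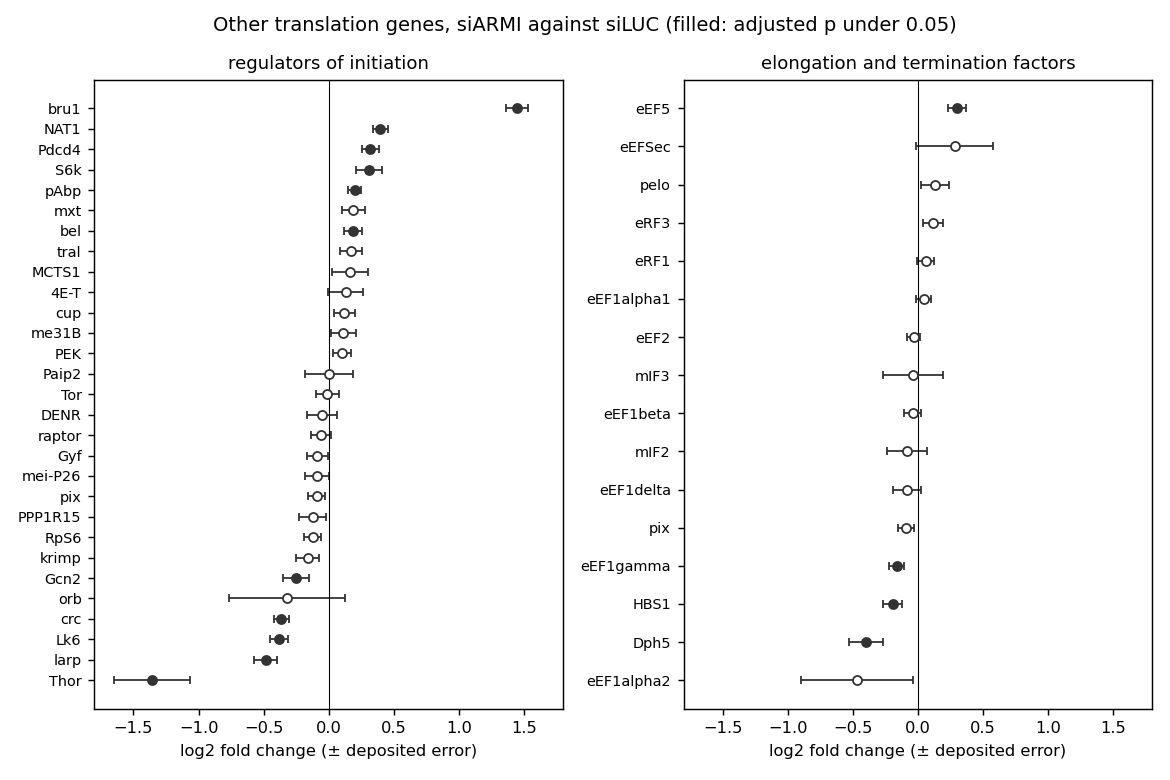
Log2 fold change in siARMI against siLUC, with bars for the deposited error, filled where the adjusted p is under 0.05. The left panel holds the 29 genes listed as regulators of initiation, the right panel the 16 of the elongation and termination list. On the left bru1 at 1.44 and Thor at −1.36 lie outside the others, and on the right all points lie between −0.47 and 0.30.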

How the data were processed

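The authors deposited 2 tables of results. Per the file headers, which carry the column names of DESeq2 output, a row gives the mean normalised count (a signal over the libraries compared), the log2 fold change with its error, and the raw and adjusted p-values. Tools named in the submitters' processing notes, without roles, are DESeq2, edgeR, Salmon 1.7.0, HOMER, STAR and Bowtie. Build, annotation and use of strand in counting: not given in the sources used here. The fold changes appear to have been shrunk toward 0 before deposit, an inference from the values: dividing them by their errors does not return the listed p-values. Signs were read as knockdown relative to siLUC because armi and fs(1)Yb were negative in their own comparisons.

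No values per library were used, so the planned edgeR test was not run, depth per library and its precision are unknown, and the authors' adjusted p under 0.05, over 8473 rows (siARMI) and 8478 rows (siYB) with a p-value, defines a call. Benjamini-Hochberg adjustment of the deposited p-values was checked to within 3.64e-14 and tested on simulated data. Nothing states that libraries of a group were separate cultures; their p-values may therefore reflect technical spread alone.

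Lengths, positions and exon overlaps come from the BDGP6.54 annotation (Ensembl release 115), matched by symbol for all 35 members. Factors past the test, paralogues and eIF2 subunits were named by rule. So were the 4 smallest p-values of the regulator list and of the elongation and termination list. The cell type markers named were not chosen by that rule. The members and lists were chosen with earlier results of these data known. Alternatives were other thresholds, adjustments, filters and lengths. Python 3.11.15, pandas 2.3.3 and scipy 1.17.1 were used.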

Additional observations from a re-analysis of the deposited data

How the results depend on the processing

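The count of 4 factors higher after Armitage knockdown was 2 at an adjusted p under 0.01 and 2 with the Benjamini-Yekutieli method, in both cases without eIF4G1 and eIF5. The 8 lower factors were 6 to 8 under the 7 alternatives run. The counts of 0 after Yb knockdown stayed 0 under all 7. That was fixed in advance, as the smallest unadjusted p of the factors there was 0.419. Of the 12 called factors 8 passed under every alternative. The others were eIF2alpha, eIF4G1 and eIF5, lost at 0.01 and with Benjamini-Yekutieli, and eIF3c, lost with eIF2alpha and eIF5 when a log2 fold change of at least 0.25 was asked for. At 0.1 another 2, eIF1A and eIF4E1, passed. No called factor reversed, which the alternatives could hardly show, since they reuse the same deposited fold changes. No paired analysis was possible because the columns carry no values per library, and leaving out replicates was not run for the same reason. Low counts limit eIF4B, eIF4E6 and eIF2Balpha.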

Other observations

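An annotated initiation factor stood outside the name rule. The row CG7414, named eIF2A in the BDGP6.54 annotation, had a mean normalised count of 3289 in the authors' deposited siARMI table, with a log2 fold change of −0.06 ± 0.08 there (BH-adjusted p = 0.625). Exons were shared with another gene on the same strand in 4 of the 35 factors and on the opposite strand in 13. Among the latter, eIF2Bepsilon shares 153 of 2447 exon bases with mip130, which was higher by 0.32 ± 0.09 per the authors' deposited table (BH-adjusted p = 0.00159) while eIF2Bepsilon fell.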
